A study of Mus musculus with 4 samples.

Results

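The genes described here are 47 mouse genes for enzymes that cut the extracellular matrix and cell-surface proteins, and for their inhibitors. They comprise 11 matrix metalloproteinases (MMPs), 7 ADAMs, 18 ADAMTS proteases, 5 ADAMTS-like proteins, 4 tissue inhibitors of metalloproteinases (TIMPs) and the serine proteases Htra1 and Fap. They were taken by symbol, through the GENCODE M21 annotation of GRCm38, from a table of 55487 Ensembl gene IDs, and each symbol matched 1 row. Mmp9 and Mmp13 were left out by the same choice. The table holds bulk RNA-seq read counts of skeletal stem cells from wild-type mice after ovariectomy (2 libraries) or sham surgery (2 libraries), all given the time 8 weeks. The series title sets the comparison in the progression of osteoporosis, for which the loss of ovarian oestrogen is a common mouse model. The cells came from collagenase-digested metaphyses of long bones and were sorted by flow cytometry after staining for CD45, Tie2, CD51, CD200, Ter119, 6C3, CD90 and CD105. The labels do not say whether 8 weeks is an age or a time after surgery, whether animals were pooled, or whether the libraries of a group came from separate mice. The p-values therefore measure the spread between these libraries, which may be technical.

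MMPs, ADAMs and ADAMTS proteases are zinc enzymes that are made with a prodomain, which keeps them inactive until it is removed. MMPs cleave collagens, proteoglycans and other matrix proteins. ADAMs are anchored in the membrane and release the outer parts of growth factors, cytokines and receptors. ADAMTS proteases are secreted and include enzymes that cut aggrecan and versican, and enzymes that remove the N-propeptides of fibrillar procollagens. TIMPs bind the active site of these metalloproteinases, and each TIMP has its own range of targets. In bone and growth plate these enzymes take part in the removal of cartilage matrix, in vessel invasion and in remodelling.

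The libraries held 23228031 and 18291436 counts (ovariectomy 1 and 2) and 22935095 and 23721078 counts (sham 1 and 2). A single count was worth between 0.0423 and 0.0519 CPM. Of the sort antigens, Itgav (CD51) lay between 67.3 and 72.0 CPM in the 4 libraries whereas Ptprc (CD45) lay between 3.55 and 9.55 CPM and Thy1 (CD90) had 3 to 5 counts. Cd200 fell, at 173 and 155 CPM in ovariectomy and at 237 and 305 CPM in sham libraries (log2 fold change -0.73, edgeR adjusted p = 0.0462). Eng (CD105) was at 75.2 and 83.1 CPM in ovariectomy and at 21.6 and 52.1 CPM in sham libraries (edgeR adjusted p = 0.150), and limma-voom called it higher (0.0471). Tek (Tie2) and Enpep (6C3) had log2 fold changes of 1.59 and 1.23 in the DESeq2 test (adjusted p = 0.794 and 0.332). With limma-voom these were 2.86 and 1.23 (adjusted p = 0.134 and 0.186). The part of the sort antigens in the results below was not tested. The marker lists were chosen with results of these data known. Over all 17120 genes tested, edgeR called 2.98% higher and 1.20% lower, and 3154 had an unadjusted p under 0.05. Among marker genes of other cells, 5 of 6 chondrocyte genes and 4 of 6 osteoblast genes were lower after ovariectomy. Of the fibroblast markers, 4 of 6 were higher, of the pericyte and smooth muscle markers 3 of 6, and of the tested erythroid markers 4 of 5. The DESeq2 test also called 4 erythroid markers higher, but limma-voom called only Car1. For neutrophils 2 of 6 markers were higher and for osteoclasts 1 of 3 tested (Ctsk). The DESeq2 test and limma-voom called Acp5 higher as well as Ctsk. Of 5 tested adipocyte markers edgeR and limma-voom called 0 (2 at an unadjusted p under 0.05), and the DESeq2 test called Cfd higher. Summed CPM of the 6 chondrocyte genes was 60054 and 54725 in ovariectomy and 102410 and 94381 in sham libraries, and that of the 6 fibroblast genes was 292 and 310 against 47.7 and 80.6. None of these marker genes was at 0 in all 4 libraries, and the part of these cells was likewise not tested. In bulk RNA, fewer cells of a type and less RNA per cell cannot be told apart.

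Of the 47 genes, 46 had enough counts to be tested. Ovariectomy was followed by higher RNA of 6 of them and lower RNA of 1, at an edgeR adjusted p under 0.05 over all 17120 genes tested. The genes that rose were the aggrecan-cutting enzymes Adamts4 and Adamts5, the ADAMTS-like genes Adamtsl1 and Adamtsl4, the inhibitor Timp2 and the serine protease Htra1. The gene that fell was Adamts3, a procollagen N-propeptidase. The calls make up 15.2% of the tested members, where 4.18% of all genes tested were called (2.98% higher and 1.20% lower). At an unadjusted p under 0.05 by edgeR were 22 of the 46 members and 3154 of all 17120 genes. The median log2 fold change was 0.49 over the 46 genes and -0.02 over all genes tested. In 34 of the 46 genes (73.9%) the groups did not overlap, 25 with both ovariectomy libraries above and 9 with both below, against 49.3% of all genes tested. These shares are given as a description, because the list was chosen with results of these data known. Mmp17, Adamts16, Adamts19 and Adamtsl5 reached the count threshold in both libraries of the ovariectomy group alone. Each is among the 25 and enters the median, with a difference built into its being tested. No member was called without ovariectomy 1 or without ovariectomy 2 (16 and 18 members at an unadjusted p under 0.05 by edgeR), nor was any other gene (1893 and 1686 genes at an unadjusted p under 0.05). Without sham 1, 10 members were higher and 2 lower, and without sham 2, 16 were higher and 1 lower. Higher calls were 71.2% of all calls, and with all 4 libraries kept this share lay between 63.2% (mean of at least 5 CPM) and 82.2% (library totals as the only scaling). With a replicate block the counts of members were 13 and 2, with the DESeq2 test 13 and 3.

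**Figure D1:**
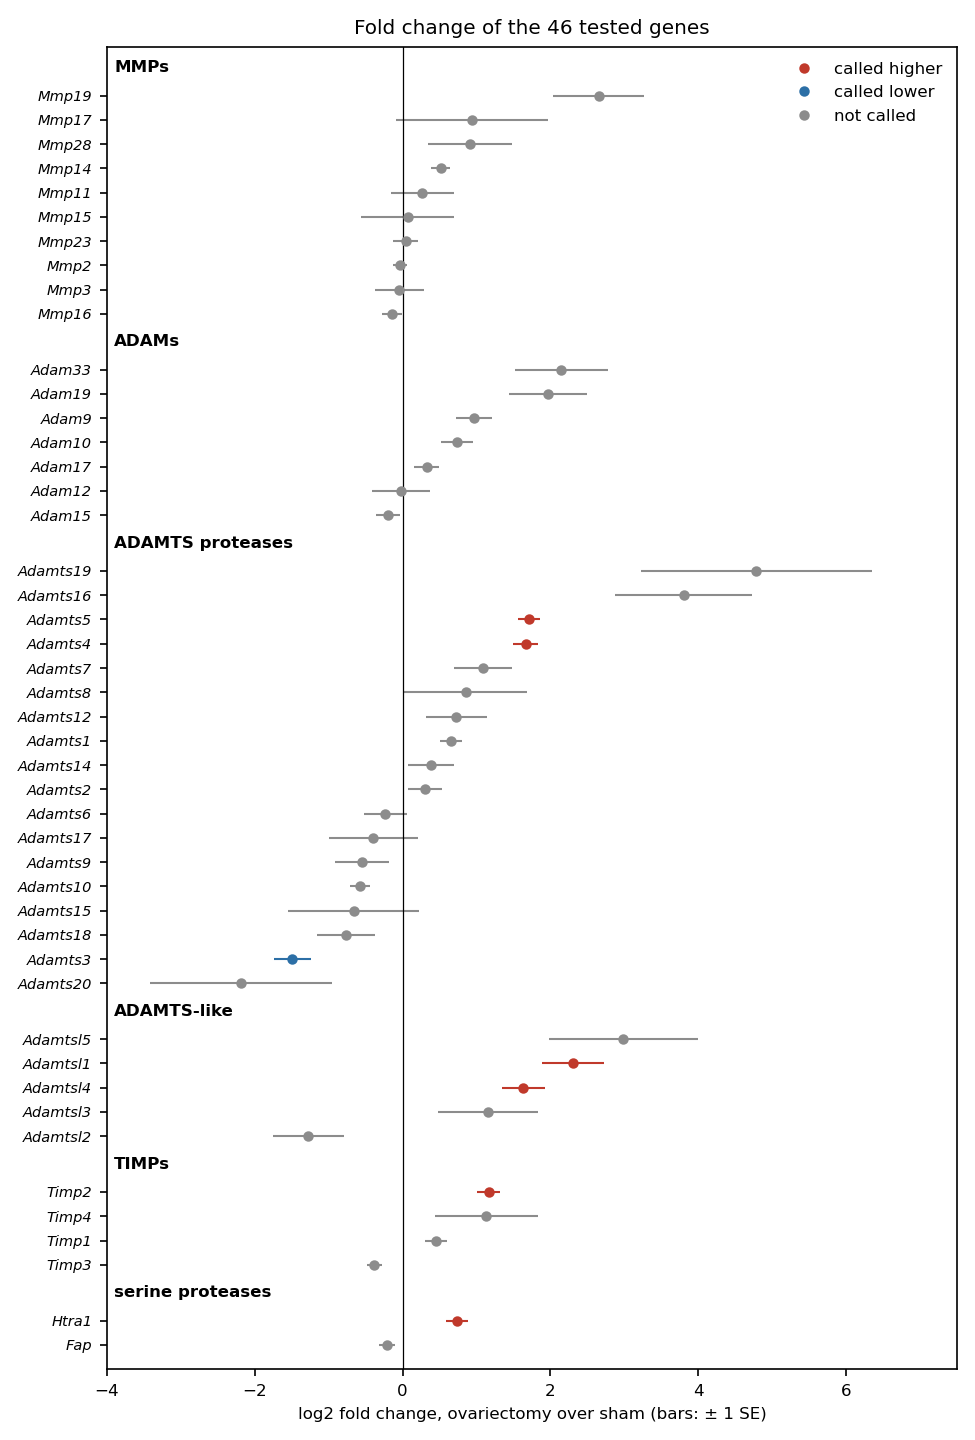
Log2 fold change of each tested gene, ovariectomy over sham (x axis, points with bars of 1 SE from edgeR), by enzyme class. Red points are the 6 genes called higher, the blue point is Adamts3, called lower, and grey points did not pass. The point of Adamts19 rests on 1 sham count.

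Levels between genes were compared per kilobase of exon. Htra1 had the highest mean level of the 47, at 407 CPM per kb in ovariectomy and 244 CPM per kb in sham libraries. Mmp2, Timp3, Timp1 and Fap followed, with means over the 4 libraries of 205, 116, 115 and 94.0 CPM per kb. Adamts1, at 73.3 CPM per kb in ovariectomy and 46.4 CPM per kb in sham libraries, was the most abundant ADAMTS gene. At the other end, Mmp17, Adamts20, Mmp24 and Adamts19 each had a mean under 0.1 CPM per kb. Timp3 and Timp1 exchanged places between the groups. Timp1 was the higher of the pair in both ovariectomy libraries, and Timp3 was the higher in both sham libraries.

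**Figure D2:**
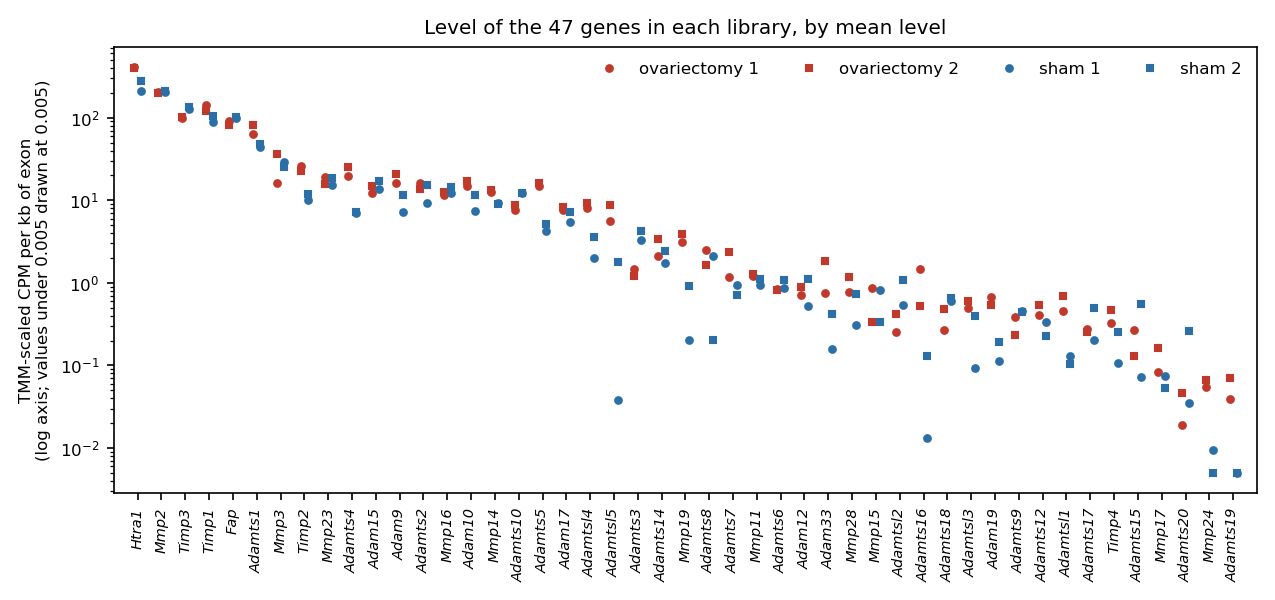
Level of each of the 47 genes in each library in TMM-scaled CPM per kb of exon (log axis), ordered by mean level, ovariectomy in red and sham in blue. Levels span from Htra1, at 325 CPM per kb over the 4 libraries, to Adamts19, at 0.0282, and Adamtsl5 and Adamts16 show a sham 1 library far below sham 2.

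The ADAMTS proteases of the hyalectanase group cut aggrecan, versican and related proteoglycans. Adamts4 (aggrecanase 1, ENSMUSG00000006403, GRCm38 chromosome 1, 171250421 to 171260637, plus strand) was at 93.5 and 123 CPM in ovariectomy libraries and at 33.7 and 34.6 CPM in sham libraries. Adamts5 (aggrecanase 2, ENSMUSG00000022894, chromosome 16, 85856173 to 85901828, minus strand) was at 159 and 174 CPM in ovariectomy libraries and at 45.7 and 55.8 CPM in sham libraries. For both genes the lower ovariectomy library lay well above the higher sham library. Adamts4 rose 3.17-fold, with a log2 fold change of 1.67 ± 0.17 SE (edgeR adjusted p = 0.00450). Adamts5 rose 3.28-fold, with a log2 fold change of 1.71 ± 0.15 SE (edgeR adjusted p = 0.00302). Both were also called with the DESeq2 test and limma-voom, and their log2 fold changes without 1 library lay between 1.46 and 1.87.

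Adamts1, which also cuts versican and aggrecan, was at 341 and 436 CPM in ovariectomy and at 235 and 257 CPM in sham libraries. The groups did not overlap, but the edgeR adjusted p was 0.0551 (log2 fold change 0.66 ± 0.15 SE). It was called with the DESeq2 test (adjusted p = 0.000142) and with limma-voom (0.0204). Adamts1 lies next to Adamts5 on chromosome 16, on the same strand, with 53.1 kb and no protein-coding gene between them. Adamts15 and Adamts8, also neighbours (chromosome 9, 20.1 kb apart, opposite strands), both had overlapping groups. Adamts8 was at 11.5 and 7.69 CPM in ovariectomy and at 9.72 and 0.935 CPM in sham libraries. Its log2 fold change of 0.85 was 3.36 with sham 1 left out and -0.013 with sham 2 left out. Adamts9 was at 5.75 and 3.48 CPM against 6.82 and 6.68 CPM in sham, Adamts15 at 2.75 and 1.35 CPM against 0.758 and 5.74 CPM in sham, and Adamts20 had 4 and 8 counts against 7 and 53 in sham, where sham 2 stands apart (log2 fold change -2.18 ± 1.23 SE, and -0.11 with sham 2 left out). None of these 4 passed. Summed over the 7 hyalectanases, the level was 102 and 126 CPM per kb in ovariectomy and 58.2 and 62.3 CPM per kb in sham libraries. Adamts4 and Adamts5 together with Adamts1 made up nearly all of it, and Adamts1 held 63.2% and 65.2% of the sum in ovariectomy and 76.1% and 77.8% in sham libraries.

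Their substrates were read from a list of 11 matrix genes, of which 10 were tested, and edgeR called 1 higher and 3 lower. Of all genes tested, 2.98% were called higher and 1.20% lower. Acan (aggrecan, the main cartilage proteoglycan) was at 950 and 845 CPM in ovariectomy and at 1700 and 1542 CPM in sham libraries (log2 fold change -0.85 ± 0.11 SE, edgeR adjusted p = 0.00830). Comp (log2 fold change -0.65, adjusted p = 0.0103), a cartilage matrix protein, and Fmod (-0.61, adjusted p = 0.0117), a small proteoglycan, fell as well. Fn1 (fibronectin) rose, with a log2 fold change of 0.68 (edgeR adjusted p = 0.0242). Acan and Comp also stand in the chondrocyte marker list above.

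Adamts7 and Adamts12, which can both cut COMP, were at 7.31 and 14.8 CPM and at 4.44 and 5.82 CPM in ovariectomy libraries, against 5.84 and 4.54 CPM and 3.70 and 2.49 CPM in sham libraries. Both ovariectomy libraries lay above both sham libraries for each gene, where the groups did not overlap in 49.3% of all genes tested. Neither passed (edgeR adjusted p = 0.197 and 0.423). Adamts7 had an unadjusted p of 0.0271 by edgeR and a log2 fold change of 1.08, or 0.50 with ovariectomy 2 left out.

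Among the 3 procollagen N-propeptidases, which trim newly secreted fibrillar collagens, Adamts3 was the member that fell. Adamts3 (ENSMUSG00000043635, chromosome 5, 89677087 to 89883334, minus strand), known as a main processor of type II procollagen and of the lymphatic growth factor VEGF-C, was at 8.03 and 6.54 CPM in ovariectomy and at 17.9 and 23.1 CPM in sham libraries. The groups were well apart, at 2.82-fold lower after ovariectomy (log2 fold change -1.49 ± 0.25 SE, edgeR adjusted p = 0.0218). Adamts2, which processes types I, II and III procollagen, was at 151 and 129 CPM in ovariectomy and at 85.8 and 141 CPM in sham libraries. Adamts14 was at 11.0 and 17.5 CPM in ovariectomy and at 9.01 and 12.7 CPM in sham libraries. Neither passed (edgeR adjusted p = 0.576 and 0.606), and their groups overlapped. The log2 fold change of Adamts2 was -0.016 with sham 1 left out and 0.70 with sham 2 left out. Adamts3 held 7.49% and 6.57% of the summed level of the 3 enzymes per kb in ovariectomy libraries, against 23.2% and 19.5% in sham libraries. Of 8 fibrillar collagen genes, 3 were lower and 1 higher (1.20% and 2.98% of all genes tested). Col2a1 (type II), which also stands in the chondrocyte marker list above, was at 40259 and 36879 CPM in ovariectomy libraries. It was at 73169 and 65394 CPM in sham libraries (edgeR adjusted p = 0.00434). Col11a1 and Col11a2 fell too, while Col3a1 (type III) rose to 2032 and 2934 CPM in ovariectomy libraries, against 546 and 917 CPM in sham libraries (edgeR adjusted p = 0.0137). The 250 bases before the RefSeq start of Adamts3 (GRCm38.p6, chr5:89883335-89883584, minus strand) are shown because it is the member that fell, with its GC box in capitals.
Adamts3: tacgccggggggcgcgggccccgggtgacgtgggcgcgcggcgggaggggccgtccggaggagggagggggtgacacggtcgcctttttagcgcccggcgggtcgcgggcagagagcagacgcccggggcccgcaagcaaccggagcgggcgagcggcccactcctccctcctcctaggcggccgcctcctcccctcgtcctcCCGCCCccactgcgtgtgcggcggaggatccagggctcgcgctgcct

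ADAMTS-like proteins resemble ADAMTS proteases but lack the protease domain, and several bind fibrillin microfibrils. Of 5 such genes, 2 rose, where edgeR called 2.98% of all genes tested higher and 1.20% lower. Adamtsl4 (ENSMUSG00000015850, chromosome 3, 95676201 to 95687917, minus strand), which binds fibrillin 1, was at 34.2 and 38.8 CPM in ovariectomy and at 8.34 and 15.2 CPM in sham libraries. It rose 3.10-fold, with an edgeR adjusted p of 0.0256 (log2 fold change 1.63 ± 0.29 SE). Adamtsl1 (ENSMUSG00000066113, chromosome 4, 85514172 to 86428385, plus strand) was at 5.83 and 8.93 CPM in ovariectomy and at 1.65 and 1.34 CPM in sham libraries, 4.95-fold higher (log2 fold change 2.30 ± 0.42 SE, edgeR adjusted p = 0.0281). Both genes had every ovariectomy library above every sham library. Adamtsl5 was at 26.4 and 41.4 CPM in ovariectomy libraries, but the sham libraries were far apart at 0.178 and 8.37 CPM. Its log2 fold change of 2.98 ± 1.01 SE did not pass (edgeR adjusted p = 0.168), and was 2.02 without sham 1 and 7.52 without sham 2. Limma-voom called Adamtsl5 higher (adjusted p = 0.0407). The gene reached the low-count threshold of 0.433 CPM in both libraries of the ovariectomy group alone. A difference was therefore built into its being tested. Adamtsl3 was at 3.85 and 4.62 CPM in ovariectomy and at 0.714 and 3.07 CPM in sham libraries (log2 fold change 1.16, edgeR adjusted p = 0.440). Its log2 fold change was 0.46 when sham 1 was left out and 2.56 when sham 2 was left out. Adamtsl2, known to bind the latent TGF-beta binding protein LTBP1, was the member with a lower mean. It was at 2.03 and 3.38 CPM in ovariectomy and at 4.37 and 8.68 CPM in sham libraries. Its log2 fold change was -1.28 (edgeR adjusted p = 0.215), or -1.69 with sham 1 left out and -0.70 with sham 2 left out. Summed over the 5 genes the level was 14.95 and 19.7 CPM per kb in ovariectomy and 2.79 and 6.99 CPM per kb in sham libraries.

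Of 10 genes of the fibrillin microfibril and its partners, edgeR called 4 higher and 0 lower. Among them 7 had an unadjusted p under 0.05, and the median log2 fold change was 0.91. Of all 17120 genes tested, 2.98% were called higher, 1.20% lower, and 3154 had an unadjusted p under 0.05. The DESeq2 test called Efemp2 (fibulin 4) lower, at 197 and 167 CPM in ovariectomy and 238 and 238 CPM in sham libraries (adjusted p = 0.0448, and 0.154 by edgeR). Mfap5 (a microfibril glycoprotein) was at 30.7 and 34.9 CPM in ovariectomy and at 4.91 and 4.63 CPM in sham libraries (edgeR adjusted p = 0.00185). Fbln5 (fibulin 5, needed for elastic fibres) was at 176 and 199 CPM against 31.4 and 46.5 CPM in sham, and Ltbp4 at 163 and 188 CPM against 34.4 and 59.3 CPM in sham (edgeR adjusted p = 0.00340 and 0.00838). The same 250-base window before the RefSeq start of Adamtsl4 (GRCm38.p6, chr3:95687918-95688167, minus strand) holds 2 GC boxes, in capitals.
Adamtsl4: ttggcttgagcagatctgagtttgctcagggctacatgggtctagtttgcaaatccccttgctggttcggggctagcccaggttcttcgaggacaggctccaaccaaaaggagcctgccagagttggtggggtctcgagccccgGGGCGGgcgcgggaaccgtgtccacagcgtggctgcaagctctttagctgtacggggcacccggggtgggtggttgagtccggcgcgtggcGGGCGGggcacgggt

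Of the 4 TIMPs, Timp2 rose, where edgeR called 2.98% of all genes tested higher and 1.20% lower. Timp2 (ENSMUSG00000017466, chromosome 11, 118301069 to 118355740, minus strand), which inhibits many MMPs and also takes part in the activation of pro-MMP2 at the cell surface by MMP14, was at 102 and 88.5 CPM in ovariectomy and at 39.2 and 45.9 CPM in sham libraries. The groups did not overlap, and the increase was 2.24-fold with an edgeR adjusted p of 0.00838 (log2 fold change 1.16 ± 0.15 SE, ranging over 1.05 to 1.28 when any 1 library was left out). Timp1, a secreted inhibitor of most soluble MMPs, was at 127 and 108 CPM in ovariectomy and at 78.4 and 93.1 CPM in sham libraries (log2 fold change 0.46 ± 0.15 SE, edgeR adjusted p = 0.153). Timp3, which is held in the matrix and also inhibits ADAMs and aggrecanases, was at 802 and 841 CPM in ovariectomy and at 1038 and 1102 CPM in sham libraries. Its log2 fold change of -0.38 ± 0.10 SE did not pass (edgeR adjusted p = 0.0922), and it was called lower with the DESeq2 test (0.00691) and limma-voom (0.0311). Timp3 shares 21.3% of its exon length with Syn3 on the opposite strand. Timp4 was low, at 1.90 and 2.80 CPM in ovariectomy and at 0.624 and 1.51 CPM in sham libraries (log2 fold change 1.13, edgeR adjusted p = 0.468, or 0.63 with sham 1 left out and 1.90 with sham 2 left out).

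Summed per kb, the TIMPs were at 268 and 249 CPM per kb in ovariectomy and at 226 and 252 CPM per kb in sham libraries, so that the sums overlapped while the makeup differed. Timp3 made up 36.7% and 41.6% of the sum in ovariectomy and 56.4% and 53.7% in sham libraries. Timp2 made up 9.78% and 9.14% in ovariectomy and 4.46% and 4.68% in sham libraries. The window before the RefSeq start of Timp2 (GRCm38.p6, chr11:118355412-118355661, minus strand), which lies inside the bounds of the GENCODE gene, is shown as the inhibitor that rose, with its GC box in capitals.
Timp2: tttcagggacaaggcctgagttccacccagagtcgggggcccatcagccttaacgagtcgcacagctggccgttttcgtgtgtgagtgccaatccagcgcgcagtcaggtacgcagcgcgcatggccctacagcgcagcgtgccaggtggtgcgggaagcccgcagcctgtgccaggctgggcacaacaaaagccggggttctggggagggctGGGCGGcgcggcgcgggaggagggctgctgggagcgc

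**Figure D3:**
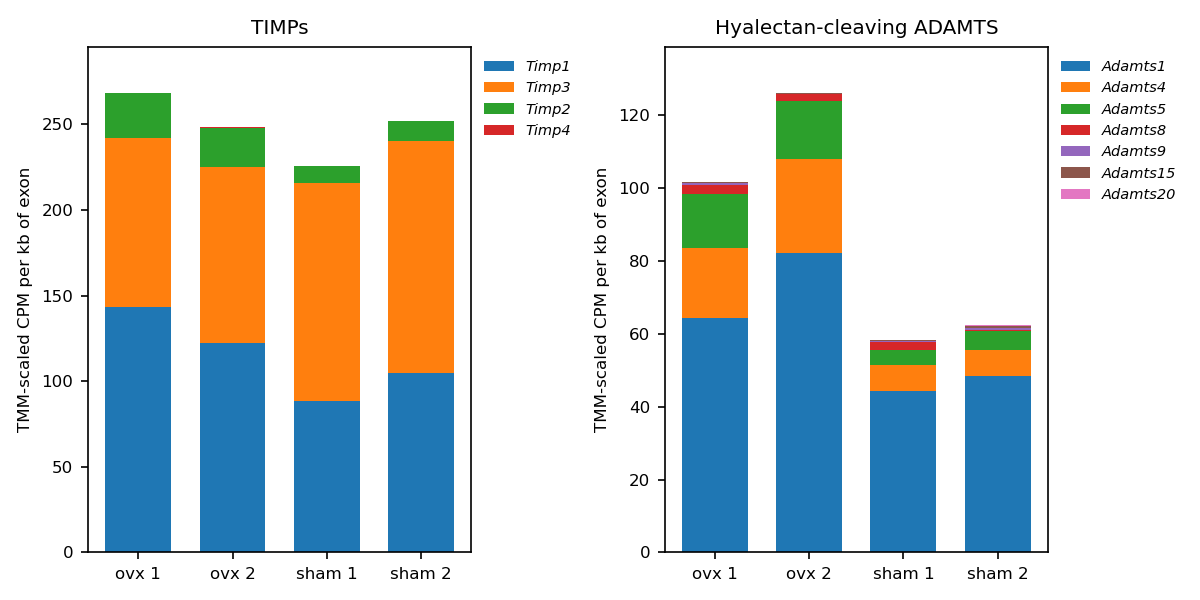
Stacked levels of the 4 TIMPs (left) and the 7 hyalectanase ADAMTS genes (right) in each library, in TMM-scaled CPM per kb of exon, with 1 bar per library. The TIMP bars reach 226 to 268 CPM per kb in all libraries, while the hyalectanase bars reach 102 and 126 in ovariectomy and 58.2 and 62.3 in sham libraries.

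Htra1 is a secreted serine protease that cuts fibronectin, aggrecan and other matrix proteins. Htra1 (ENSMUSG00000006205, chromosome 7, 130936111 to 130985660, plus strand) was at 1175 and 1167 CPM in ovariectomy and at 598 and 804 CPM in sham libraries. The ovariectomy pair was tight and above the sham pair, which was spread. Htra1 rose 1.67-fold, with a log2 fold change of 0.74 ± 0.15 SE (edgeR adjusted p = 0.0398). Fap, a membrane-bound serine protease that marks activated stromal fibroblasts, was at 522 and 465 CPM in ovariectomy and at 562 and 581 CPM in sham libraries. Both ovariectomy libraries were below both sham libraries, and the difference did not pass (log2 fold change -0.21 ± 0.11 SE, edgeR adjusted p = 0.383). The window before the RefSeq start of Htra1 (GRCm38.p6, chr7:130935953-130936202, plus strand), the most abundant member, has 1 GC box on the opposite strand, in capitals. Its last part lies inside the GENCODE gene, which starts earlier.
Htra1: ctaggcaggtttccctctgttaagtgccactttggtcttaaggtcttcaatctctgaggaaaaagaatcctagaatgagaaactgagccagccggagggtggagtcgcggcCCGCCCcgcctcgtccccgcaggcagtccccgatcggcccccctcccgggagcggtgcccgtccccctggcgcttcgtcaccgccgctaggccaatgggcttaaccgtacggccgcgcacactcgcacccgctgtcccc

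**Figure D4:**
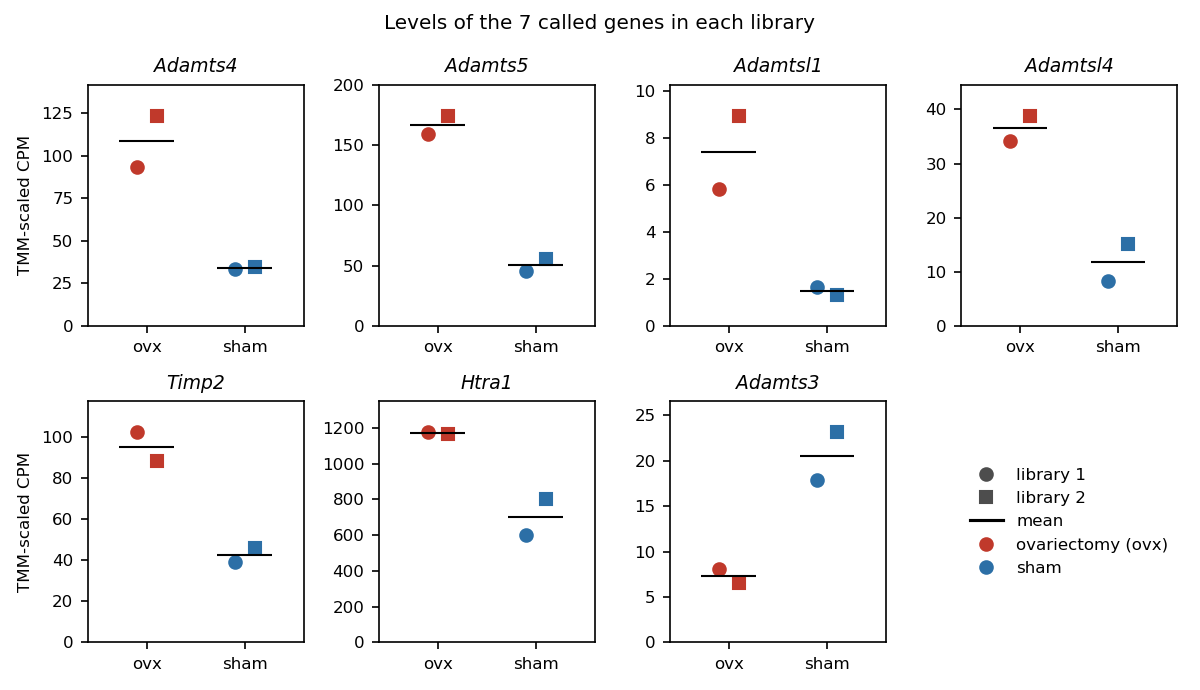
TMM-scaled CPM (y axis, from 0) of the 7 called genes in each library, ovariectomy left and sham right, with circles for library 1, squares for library 2 and a line at the mean of each pair. In all 7 panels the groups do not overlap, which follows largely from drawing the genes called in these same libraries. Adamts3 alone is lower after ovariectomy.

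Of 10 tested MMP genes, edgeR called 0, with 2 at an unadjusted p under 0.05. Of all 17120 genes tested, 4.18% were called and 3154 had an unadjusted p under 0.05. The DESeq2 test called Mmp14 and Mmp19 higher and limma-voom called Mmp19 higher. Mmp2 (gelatinase A) held most of the level summed over the 11 MMP genes described here, which leave out Mmp9 and Mmp13. It was at 686 and 676 CPM in ovariectomy and at 697 and 700 CPM in sham libraries. Its log2 fold change was -0.04 ± 0.10 SE (edgeR adjusted p = 0.913), and the sign turned with library totals as the only scaling. Mmp14 (MT1-MMP), the membrane-anchored collagenase that activates pro-MMP2, was at 75.1 and 78.8 CPM in ovariectomy and at 54.5 and 53.1 CPM in sham libraries. Both pairs were tight and apart, and the log2 fold change of 0.52 ± 0.13 SE had an edgeR adjusted p of 0.0787. Mmp19, a secreted enzyme that cuts basement membrane proteins, was at 11.1 and 13.9 CPM in ovariectomy and at 0.714 and 3.25 CPM in sham libraries (log2 fold change 2.65 ± 0.61 SE, edgeR adjusted p = 0.0625). Its log2 fold change was 1.94 without sham 1 and 4.12 without sham 2, and 28.3% of its exon length is shared with Tmem198b on the opposite strand.

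Mmp3 (stromelysin 1), which cuts proteoglycans and activates other pro-MMPs, was at 29.5 and 65.7 CPM in ovariectomy and at 52.2 and 45.8 CPM in sham libraries. The ovariectomy libraries lay on either side of the sham pair (edgeR adjusted p = 0.971), and the sign turned with library totals and with the GC and length offset. Of the other membrane-type enzymes, Mmp16 was at 99.6 and 109 CPM in ovariectomy and at 107 and 124 CPM in sham libraries, and Mmp23 at 44.4 and 37.1 CPM against 36.0 and 43.2 CPM in sham. The remaining tested genes, Mmp11, Mmp15, Mmp17 and Mmp28, lay under 5 CPM in every library, with edgeR adjusted p between 0.472 and 0.978. Mmp24 was not tested, with 6 and 6 counts in ovariectomy and 1 and 0 in sham libraries, a ratio of 12.6 with a 95% exact counting interval of 1.86 to 537. Summed over these 11 MMP genes, without Mmp9 and Mmp13, the level was 269 and 286 CPM per kb in ovariectomy libraries. In sham libraries it was 275 and 278 CPM per kb. The window before the RefSeq start of Mmp3 (GRCm38.p6, chr9:7445572-7445821, plus strand) is shown beside those of the called genes because it is the member promoter that holds an AP-1 motif and a TATA box without a GC box. Both are in capitals.
Mmp3: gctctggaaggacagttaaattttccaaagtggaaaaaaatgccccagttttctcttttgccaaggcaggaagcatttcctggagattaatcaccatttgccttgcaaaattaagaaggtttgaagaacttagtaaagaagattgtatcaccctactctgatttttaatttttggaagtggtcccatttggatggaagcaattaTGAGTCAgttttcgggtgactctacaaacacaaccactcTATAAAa

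Of 7 ADAM genes tested, edgeR called 0, with 4 at an unadjusted p under 0.05 (3154 of all 17120 genes tested). The DESeq2 test called Adam9, Adam10 and Adam33 higher, and limma-voom called Adam9 higher. Adam9, a sheddase, was at 66.8 and 84.9 CPM in ovariectomy and at 29.7 and 48.3 CPM in sham libraries (log2 fold change 0.96 ± 0.24 SE, edgeR adjusted p = 0.0824). Adam10, which cuts Notch receptors and cadherins, was at 72.2 and 83.3 CPM in ovariectomy and at 36.4 and 57.1 CPM in sham libraries (0.73 ± 0.22 SE, edgeR adjusted p = 0.126). Adam17 (TACE), which releases TNF and EGF receptor ligands, was at 53.9 and 59.4 CPM in ovariectomy and at 39.4 and 51.0 CPM in sham libraries (0.33 ± 0.17 SE, edgeR adjusted p = 0.380). The groups did not overlap in 5 of the 7 ADAM genes and in 49.3% of all genes tested. These 3 sheddases are among the 5, and sham 1 was the lowest library in each.

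Of the mesenchymal ADAMs, Adam33 was at 4.06 and 9.82 CPM in ovariectomy and at 0.847 and 2.27 CPM in sham libraries, and Adam19 at 4.78 and 3.79 CPM against 0.803 and 1.38 CPM in sham. Neither passed, with edgeR adjusted p of 0.119 and 0.0966 (log2 fold changes 2.15 ± 0.63 SE and 1.97 ± 0.53 SE). With any 1 library left out, Adam33 ranged over 1.38 (no ovariectomy 2) to 3.02 (no sham 2). Adam19 ranged over 1.63 (no sham 1) to 2.41 (no sham 2). Adam12 (7.53 and 9.45 CPM against 5.49 and 11.8 CPM in sham) and Adam15 (75.8 and 90.9 CPM against 85.2 and 106 CPM in sham) had overlapping groups, and 20.6% of the exon length of Adam15 is shared with a gene on the opposite strand.

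Among 21 genes for proteins that ADAMs are known to release or for related ligands, 5 rose and 0 fell. Their median log2 fold change was 0.57. Beside this list and the next, edgeR called 2.98% of all genes tested higher and 1.20% lower. Hbegf, an EGF receptor ligand, was at 1263 and 1224 CPM in ovariectomy and at 499 and 496 CPM in sham libraries (edgeR adjusted p = 0.00168). Ereg, another such ligand, had 381 and 301 counts in ovariectomy and 2 and 3 counts in sham libraries. It reached the low-count threshold of 0.433 CPM in the ovariectomy group alone, so a difference was built into its being tested. Csf1, the macrophage growth factor, was at 152 and 191 CPM in ovariectomy and at 48.8 and 59.3 CPM in sham libraries (edgeR adjusted p = 0.00450). Of 16 tested genes for activation and transport of these proteases, 3 rose and 1 fell. Tspan15, a tetraspanin partner of ADAM10, was at 136 and 117 CPM in ovariectomy and at 1.96 and 7.39 CPM in sham libraries (log2 fold change 4.76 ± 0.49 SE, edgeR adjusted p = 0.00452). Pcsk6, a proprotein convertase, was at 149 and 124 CPM against 67.6 and 68.3 CPM in sham (edgeR adjusted p = 0.0107). Clec3a, a cartilage lectin, fell, at 616 and 586 CPM in ovariectomy and at 1000 and 1138 CPM in sham libraries (edgeR adjusted p = 0.00910).

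The other 6 ADAMTS proteases had no call by edgeR, with 3 at an unadjusted p under 0.05 (3154 of all 17120 genes tested). The DESeq2 test called Adamts16 higher and Adamts10 lower. Adamts10, which binds fibrillin 1, was at 62.4 and 72.5 CPM in ovariectomy and at 101 and 99.8 CPM in sham libraries. The pairs were apart, with an edgeR adjusted p of 0.0670 (log2 fold change -0.57 ± 0.14 SE). Adamts10 was called lower with the DESeq2 test (0.00741) and limma-voom (0.0326). Adamts6, its close relative, was at 6.55 and 6.44 CPM against 6.82 and 8.46 CPM in sham. Adamts16 had 240 and 70 counts in ovariectomy and 2 and 20 counts in sham libraries. It did not pass (edgeR adjusted p = 0.0727), and its log2 fold change was 3.80 ± 0.92 SE, or 2.95 with sham 1 left out and 6.19 with sham 2 left out. Adamts19 had 13 and 19 counts in ovariectomy and 0 and 1 in sham libraries, a ratio of 33.5 with a 95% exact counting interval of 5.59 to 1363. Adamts18 was at 2.75 and 4.88 CPM in ovariectomy and at 6.20 and 6.72 CPM in sham libraries, and Adamts17 at 2.16 and 1.97 CPM against 1.56 and 3.87 CPM in sham. Mmp17, Adamts16, Adamts19 and Adamtsl5 reached the low-count threshold of 0.433 CPM in both libraries of the ovariectomy group but not of the sham group, so a difference was built into their being tested.

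Of 17 tested members with a log2 fold change of at least 1 in size, 6 were called. These 17 were picked by their fold change in the same data. Of all genes tested, whatever their fold change, 4.18% were called, and the share among those of this size is not given here. Of the 9 uncalled genes above 1, 8 had sham 1 below sham 2, as had 36 of the 46 tested members (78.3%), against 49.9% of all genes tested. Endothelial markers were lower in sham 1 as well. Their summed CPM over 6 genes was 37.0 and 57.9 in ovariectomy and 8.97 and 35.1 in sham libraries, with Cdh5 and Emcn at 0 counts in sham 1. Of these 6 markers, edgeR called 0 (1 at an unadjusted p under 0.05), and so did the DESeq2 test and limma-voom. Of all 17120 genes tested, 3154 had an unadjusted p under 0.05 by edgeR. Summed CPM of 6 macrophage markers was 17.1 and 20.2 in ovariectomy and 10.5 and 21.5 in sham libraries, with 0 called by edgeR, the DESeq2 test or limma-voom and 2 at an unadjusted p under 0.05. The part of these cells in the differences was not tested.

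**Figure D5:**
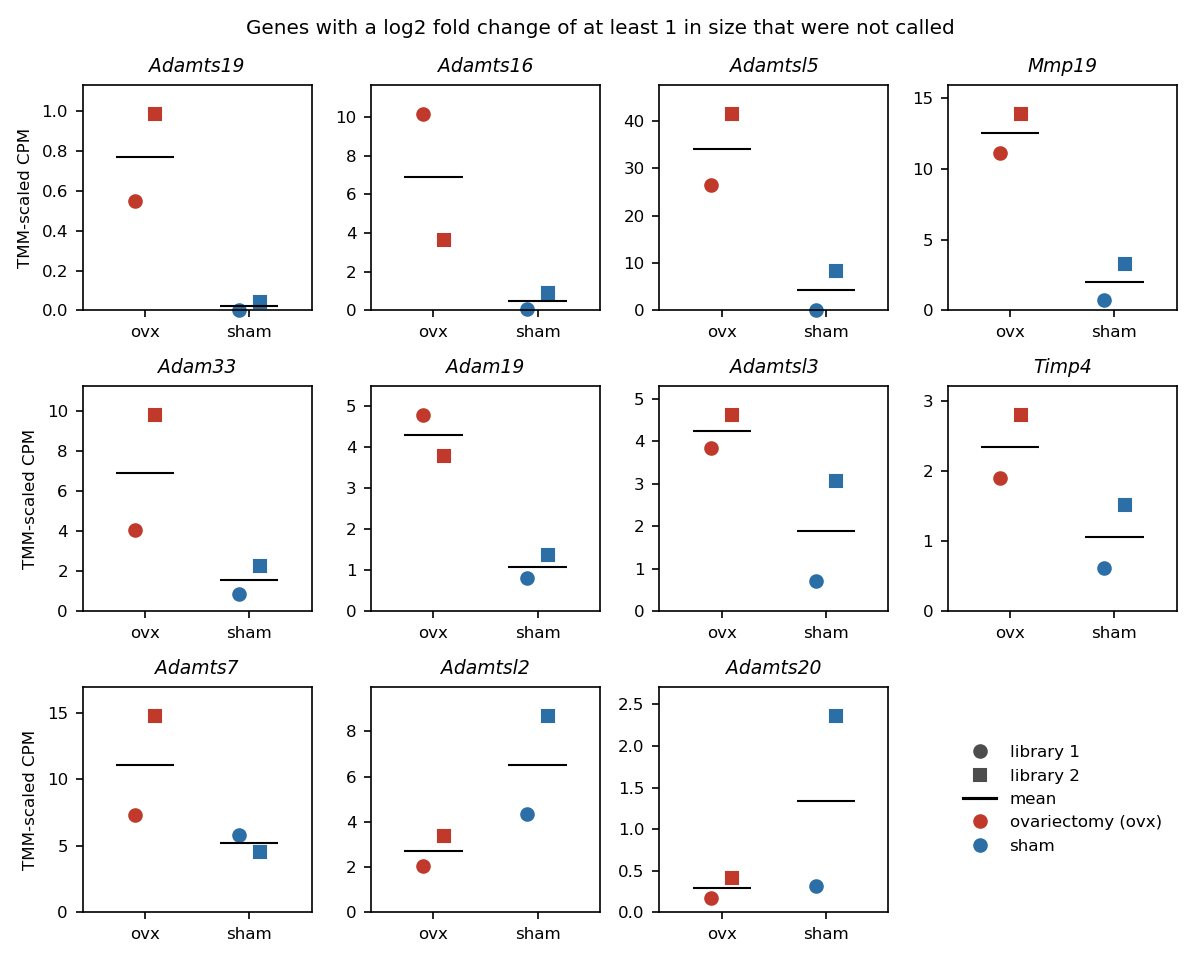
TMM-scaled CPM (y axis, from 0) of the 11 genes with a log2 fold change of at least 1 in size that were not called, ovariectomy left and sham right, with circles for library 1, squares for library 2 and lines at the means. In 8 of the 9 panels with a higher ovariectomy mean, sham 1 lies below sham 2, as in 36 of all 46 tested members.

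Matrix proteases and inhibitors outside the 47 genes were read from lists, which were chosen with results of these data known. Of all 17120 genes tested, edgeR called 2.98% higher and 1.20% lower, and 3154 had an unadjusted p under 0.05. Of 21 tested proteases of other families, 6 rose and 0 fell. Plau (urokinase) was at 21.9 and 24.1 CPM in ovariectomy and at 0.580 and 0.401 CPM in sham libraries (edgeR adjusted p = 0.000608). Plau reached the low-count threshold of 0.433 CPM in both libraries of the ovariectomy group alone, so a difference was built into its being tested. Ece1, a membrane metalloprotease, was at 84.1 and 94.4 CPM against 20.0 and 29.1 CPM in sham, and Htra4, a relative of Htra1, at 201 and 185 CPM against 11.8 and 28.4 CPM in sham (edgeR adjusted p = 0.00482 and 0.00537). Of 13 tested inhibitors and modulators, 3 rose and 2 fell. Tfpi2, an inhibitor of serine proteases, was at 9.34 and 11.4 CPM in ovariectomy and at 1.34 and 0.935 CPM in sham libraries (edgeR adjusted p = 0.00647). Pcolce2, an enhancer of procollagen C-proteinase, and Cst3 (cystatin C) fell, with edgeR adjusted p of 0.0265 and 0.0306 (log2 fold changes -0.77 ± 0.14 SE and -0.70 ± 0.13 SE). Of the other MMP genes, 4 of 10 were tested and 0 called by edgeR, the DESeq2 test or limma-voom (1 at an unadjusted p under 0.05). Mmp8 (neutrophil collagenase) was at 9.64 and 7.01 CPM in ovariectomy and at 4.55 and 2.36 CPM in sham libraries. Of the other ADAM and ADAMTS genes, 8 of 17 were tested, and edgeR and limma-voom called 0 (2 at an unadjusted p under 0.05) while the DESeq2 test called 2. Adam23 had 53 and 52 counts in ovariectomy and 8 and 3 counts in sham libraries. Like Plau, it reached the low-count threshold in both libraries of the ovariectomy group alone.

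Promoter sequences of 29 of the 47 genes were found in the RefSeq table, 32 windows in all. The 250 bases before each start were searched on both strands for the AP-1 motif TGANTCA, an NF-kB motif, the RUNX motif TGTGGT, the GC box GGGCGG and the palindromic oestrogen response element, and on the gene's strand for the TATA box TATAAA. The GC box was in 23 of the 32 windows (71.9%), against 32.7% of all 32851 promoters and 42.6% of those of protein-coding genes. All 4 printed windows of called genes hold it, among them the gene that fell. The AP-1 motif was in the windows of Mmp3 and Adam19 (6.25% of the 32 windows, 6.75% of all promoters), the NF-kB motif in that of Adam19 (3.12% against 4.11%), and the RUNX motif in 4 windows (12.5% against 14.0%). The TATA box was in 3 windows (9.38% against 7.59%). The oestrogen response element was in 0 of the 32 windows and in 0.0639% of all promoters. A match is a run of letters and not a shown site of binding. The called genes without an entry were Adamts4, Adamts5 and Adamtsl1.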

How the data were processed

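Raw read counts, 1 column per library, were what the authors deposited. Per the submitters' processing notes, Trim Galore 0.6.6 and featureCounts 2.0.1 were used, with the build GRCm38 (mm10). Per the labels' protocols, libraries were made from TRIzol RNA with a SMARTER mRNA kit. The aligner, annotation release and strand setting were not given in the sources used here. Reads from genes that overlap on opposite strands may therefore be mixed. GENCODE M21 matched 55227 of 55487 IDs and gave positions and exon lengths.

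Genes passing filterByExpr (17120) were scaled by TMM and compared with the two-sided quasi-likelihood test of edgeR 4.0.16 in R 4.3.3, with group alone as the model and Benjamini-Hochberg adjustment. The SE is the log2 fold change over the square root of F. There were 2 residual degrees of freedom and a common biological coefficient of variation of 0.317. Limma 3.58.1 (voom) and DESeq2 1.42.0 were alternatives. CPM and CPM per kb of exon use TMM-scaled totals. Intervals cover counting error only.

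The 47 genes, lists and tests were chosen with earlier results of these data known. Named with values are called members, those with a log2 fold change of at least 1 in size, the 2 highest per class and the one with the largest fold change per class, and up to 3 called genes (or 1) per list. Other members are given for completeness. The same-numbered libraries did not deviate together (correlation 0.0173 across genes), and a number in the labels is all they share.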

Additional observations from a re-analysis of the deposited data

How the results depend on the processing

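All 7 called members stayed called in each of the 9 alternatives with 4 libraries that tested them, and 11 uncalled members were called by at least 1. Genes called over the whole table numbered 716, against 1656 with no filter, 1104 at a mean of 5 CPM, 1416 with the DESeq2 test and 0 to 1611 without 1 library. Members called higher numbered 6, against 15 with no filter, 13 with the DESeq2 test and with the replicate block, 10 at a mean of 5 CPM, with library totals and with limma-voom, and 0 to 16 without 1 library. Members called lower numbered 1, against 3 with the DESeq2 test and limma-voom, 2 with no filter, at a mean of 5 CPM, with the replicate block and with the GC and length offset, and 0 to 2 without 1 library. The same-numbered samples share only a number, with a correlation of deviations of 0.0173, and the block is given as an alternative. The cause of these moves was not tested. Library totals shifted the median of all genes by 0.107 log2 units and gave 82.2% higher calls, against 71.2% with TMM. The members' median lay 0.503 above that of all genes, a gap that scaling alone cannot move, and was 0.358 above at a mean of 5 CPM, 0.415 without sham 1 and 0.628 without sham 2. The median of the tested members kept its sign under every alternative.

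Signs turned in 9 uncalled members, among them Adamts8, Adamts15, Adamts17 and Adamts2, whose main log2 fold changes were 0.85, -0.66, -0.39 and 0.30. With library totals Mmp2 was at 0.069, Mmp3 at 0.067 and Adam12 at 0.093, with the GC and length offset Mmp3 was at 0.022 and Mmp15 at -0.0027, and Adam12 was at 0.057 with limma-voom and at 0.064 with the replicate block. Without 1 library, Mmp3 ranged from -0.73 to 0.43, Mmp15 from -0.76 to 0.83, Mmp23 from -0.086 to 0.18, Adam12 from -0.47 to 0.63, Adamts8 from -0.013 to 3.36, Adamts15 from -1.47 to 1.43, Adamts2 from -0.016 to 0.70 and Adamts17 from -0.90 to 0.40. Fits without 1 library take the spread of the lone library from the other group.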
